A study of Rattus norvegicus with 29 samples.

Results

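Open chromatin of the nucleus accumbens (NAc) was compared with that of Ammon's horn (CA) of the hippocampus in rats that had received saline. The 8 libraries were chosen by their titles, 4 from the NAc and 4 from the CA, out of 29 libraries in the series. They were made by ATAC-seq, in which a transposase inserts sequencing adapters wherever DNA is not packed away, so that reads pile up over promoters, enhancers and other regulatory elements. The donors were adult male Sprague-Dawley rats, given 4 intraperitoneal injections of saline (1 mL/kg) 2 h apart, and the tissue was frozen before it was processed. The 4 NAc and 4 CA libraries of rats given methamphetamine hydrochloride (METH, 10 mg/kg, on the same schedule) served as a second set for the same comparison. No genotype other than the strain is named for either treatment.

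The names carried by the peaks identified the rat behind each library. They also hold a tag in 1 of 2 spellings, which differ only in letter case. The spellings are called batch 1 and batch 2 here, and no label explains them. The NAc and CA libraries of 1 treatment came from the same rat where their replicate numbers are equal, so the 8 libraries came from 4 rats, each of which gave a NAc and a CA library. Replicates 1 and 2 of both regions belonged to batch 1 and replicates 3 and 4 to batch 2. The study's methods mention 2 sequencing batches for its RNA-seq libraries and do not say what the tags of the ATAC-seq libraries mark. In bulk tissue, fewer cells of a type and less accessibility per cell cannot be told apart, and this holds for every difference given here.

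The NAc is the ventral part of the striatum and takes part in reward and motivation. Most of its neurons are inhibitory spiny projection neurons, which use GABA and respond to dopamine. Ammon's horn is built mainly of excitatory pyramidal neurons, which use glutamate and serve spatial and episodic memory. Promoters of widely used genes are open in most cell types, whereas distal enhancers tend to be open in particular cell types, and this makes accessibility a way to compare tissues of different cellular make-up.

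Reads had been counted by the authors in 98237 consensus open chromatin regions (OCRs) on the rat build rn6. The NAc libraries held 10.7, 11.0, 13.8 and 12.1 M counts in OCRs (replicates 1 to 4, 1 M being 1000000 counts), and the CA libraries 15.4, 16.6, 12.2 and 19.4 M. In 3 of the 4 rats the CA library was the deeper one, and the means of 11.9 ± 1.42 M and 15.9 ± 2.97 M (SD, n = 4) differed with a two-sided exact permutation p of 0.0571, or 0.171 after Benjamini-Hochberg adjustment over 3 library measures. Each NAc library had 77872 ± 17035 peaks and each CA library 89615 ± 24568 (exact permutation p = 0.514). The most accessible 10% of OCRs, by mean CPM, took 52.1 ± 3.69% of the NAc counts and 50.9 ± 6.03% of the CA counts (exact permutation p = 0.629), with a difference of -0.854 points in batch 1 and 3.25 points in batch 2. These last 2 measures had an adjusted p of 0.629 each, and 4 against 4 libraries cannot give a p below 0.0286.

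In a principal component analysis of log2 CPM (counts per 1000000 counts of the library), the first component took 45.6% of the variance and separated all NAc from all CA libraries. The second took 32.9% and set CA replicates 1 and 2 apart from CA replicates 3 and 4, that is, batch 1 from batch 2. The NAc libraries lay closer together. The difference between regions took 44.0% of the sum of squares over OCRs (exact permutation p = 0.0286, the smallest possible), the spread among the CA libraries 40.7% and that among the NAc libraries 15.3%. The 2 batches accounted for 70.7% of the spread among CA libraries and for 44.1% of that among NAc libraries. Any split of 4 libraries into 2 pairs takes up part of their spread, and the other splits were not analysed here. With the mean of each rat removed, the regions took 65.4% (exact sign-flip p = 0.125, the smallest that 4 rats allow). Pearson's r between libraries, across OCRs, ran from 0.881 to 0.938 within NAc, from 0.687 to 0.941 within CA and from 0.596 to 0.823 between the regions.

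**Figure D1:**
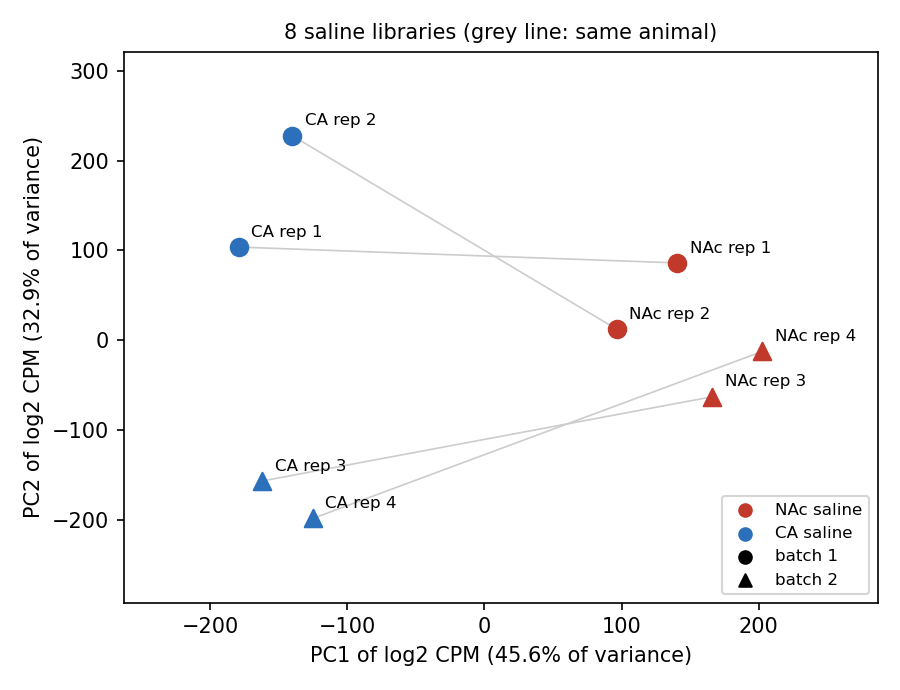
Scores of the 8 saline libraries on the first (45.6% of variance) and second (32.9%) principal components of log2 CPM, with circles for batch 1, triangles for batch 2 and a grey line joining the libraries of 1 rat. NAc and CA fall on opposite sides of the first component, and the CA libraries spread by batch along the second.

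Far more OCRs were called more accessible in NAc than in CA. Of 97464 OCRs tested with edgeR's quasi-likelihood test, 4585 (4.70%) were higher in NAc and 267 (0.274%) were higher in CA, with a fold change above 2 and a Benjamini-Hochberg FDR under 0.01 as the definition of a differentially accessible region (DAR). Fold changes are given as log2 of NAc over CA, so that a positive value is a region more open in NAc. The median size of the called changes was 2.82 for NAc DARs and -2.59 for CA DARs, while the median over all OCRs tested was -0.04. Of the NAc DARs, 4017 changed more than 4-fold, 1909 more than 8-fold and 459 more than 16-fold. Of the CA DARs, 206 changed more than 4-fold, 71 more than 8-fold and 4 more than 16-fold.

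The imbalance was smaller among the fold changes themselves. Without regard to the FDR, 11711 OCRs (12.0%) were more than 2-fold higher in NAc and 10977 (11.3%) were more than 2-fold higher in CA. The test called 39.2% of the first and 2.43% of the second. Beyond that the NAc side was the heavier one, with 5422 OCRs against 2054 above 4-fold and 1999 against 158 above 8-fold. Among the OCRs more than 2-fold higher in CA, the median SD of log2 CPM over the 4 CA libraries was 1.02, against 0.522 over the 4 NAc libraries. Among those more than 2-fold higher in NAc, these medians were 0.655 over CA and 0.476 over NAc libraries. Both sets were chosen by their fold change in these same libraries, so the SD may follow in part from the choice. At an unadjusted p under 0.05, 13391 OCRs were higher in NAc and 10395 were higher in CA, which turned to 11830 and 12258 with TMM scaling. The NAc libraries all lay above the CA libraries in 11.9% of the OCRs tested, and the CA libraries all lay above the NAc libraries in 4.36%.

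**Figure D2:**
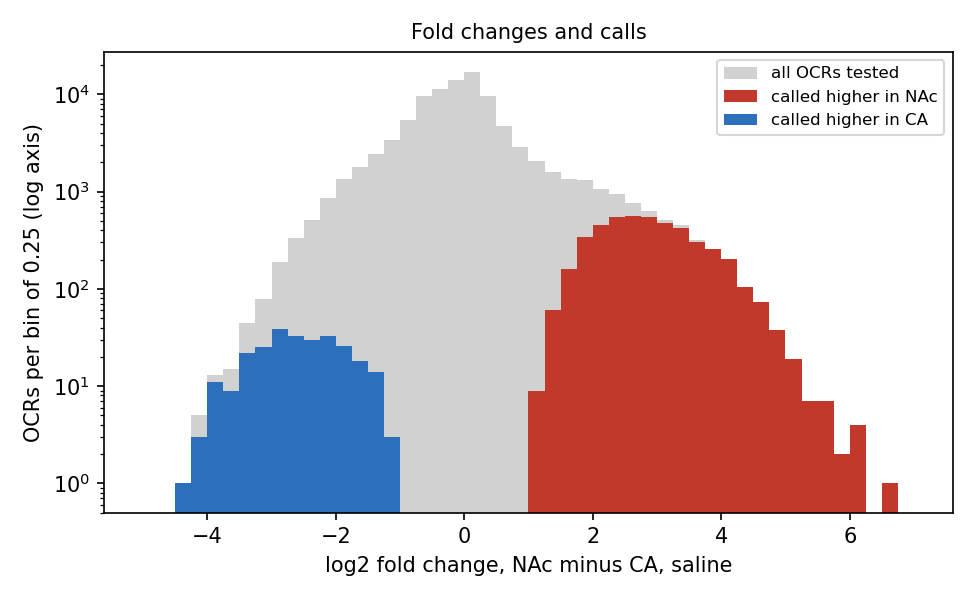
Number of OCRs per bin of the saline log2 fold change (NAc minus CA, log axis) for all 97464 OCRs tested (grey), those called higher in NAc (red, 4585) and those called higher in CA (blue, 267). Fold changes above 8 (3 on this axis) lie mostly on the NAc side, 1999 against 158, of which 1909 and 71 were called. Of the OCRs changed more than 2-fold, 39.2% were called on the NAc side and 2.43% on the CA side.

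The CA count hung on single libraries. Leaving out CA replicate 2 raised the CA DARs from 267 to 2898, and leaving out any NAc library or CA replicate 1 or 3 lowered them to between 2 and 99. Over the 267 CA DARs, the median CPM was 5.09, 2.91, 9.23 and 7.73 in CA replicates 1 to 4 and between 0.932 and 1.23 in the NAc libraries. CA replicate 2 was the lowest of the CA libraries and lay above every NAc library. The DARs were called from these same libraries, and at all 267 the groups did not overlap. Its place above NAc therefore follows from the choice. The count of NAc DARs ran from 1545 without NAc replicate 4 to 6362 without CA replicate 4, and it was also over 1.5 times smaller without NAc replicate 3 (1894), CA replicate 1 (2488) or NAc replicate 1 (3048). With the rat as a block, the same test called 4697 (4.82%) higher in NAc and 203 (0.208%) higher in CA. It shared 3839 of the 4585 NAc DARs and 125 of the 267 CA DARs with the fit without the block. When each batch of 2 rats was tested alone, 2756 (60.1%) of the NAc DARs and 59 (22.1%) of the CA DARs were called in both batches. Over all OCRs, batch 1 alone called 7759 higher in NAc and 3111 higher in CA, and batch 2 alone 3870 and 2329. The batches are made of the libraries that gave the DARs, so these counts are not a repeat in other samples. With the batch as a covariate, 7686 OCRs were called higher in NAc and 1055 higher in CA, and DESeq2 called 7676 and 3727. The NAc calls were the more numerous under each of these settings.

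The OCRs with the largest changes towards NAc were nearly silent in CA. The region chr3:101958837-101959659 had 17.9, 11.9, 17.9 and 27.5 CPM in the 4 NAc libraries and 0.0698, 0.397, 0.366 and 0.231 CPM in the 4 CA libraries. Every NAc value was at least an order of magnitude above every CA value. Its log2 fold change was 6.10 ± 0.47 (SE). The FDR of 0.000318 was the lowest of all OCRs, and chr6:146566783-146567846 had the same value.

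On the X chromosome, chrX:81514553-81515245 had 5.30, 6.37, 9.83 and 13.0 CPM in NAc and 0.140, 0.265, 0 and 0.0926 CPM in CA (log2 fold change 6.02 ± 0.59, FDR = 0.000399). On chromosome 4, chr4:20391844-20392613 had 11.4, 6.47, 13.8 and 15.1 CPM in NAc and 0.419, 0.199, 0.220 and 0.0463 CPM in CA (5.75 ± 0.53, FDR = 0.000349). None of these 3 regions had a peak in any saline library of CA or of the dentate gyrus (DG), while each had one in all 4 NAc libraries. They were also open in the subventricular zone (SVZ), with peaks in 3, 1 and 3 of its 3 saline libraries and means of 12.8, 4.34 and 9.05 CPM in the order given.

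The 10 largest changes towards NAc had log2 fold changes from 5.66 to 6.56. For the very largest the fold rests on few CA reads, since chr20:53625246-53625620 had 112 reads over the NAc libraries and 1 over the CA libraries. This gave a depth-adjusted ratio of 153 with an exact 95% interval of 26.9 to 6098. Likewise chr3:157253472-157253857 had 182 and 3 reads, a ratio of 82.9 (27.9 to 406). Such intervals cover counting error alone, and the reads were counted without molecular identifiers. The others of the 10 had 4 to 17 reads in CA and 225 to 912 in NAc. Which genes these 10 regions belong to was not analysed here, because no rn6 annotation was used.

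The OCRs with the largest changes towards CA varied widely among the CA replicates. The region chr3:45595926-45596766 had 8.86, 2.65, 26.7 and 5.55 CPM in the 4 CA libraries and 0.294, 0.616, 1.10 and 0.155 CPM in NAc. The CA values spanned a 10-fold range (log2 fold change -4.29 ± 0.79, FDR = 0.0052). No overlap between the groups was a condition for the regions given here, and it held at all 267 CA DARs. The region chr13:66556250-66556901 had 4.68, 1.46, 14.1 and 7.04 CPM in CA and 0.393, 0.616, 0.275 and 0.388 CPM in NAc (-4.04 ± 0.67, FDR = 0.00297). On chromosome 6, chr6:51840074-51841184 had 6.0, 1.46, 20.4 and 4.12 CPM in CA and 0.785, 0.205, 0.687 and 0.233 CPM in NAc (-4.03 ± 0.81, FDR = 0.00838). In these 3 regions CA replicate 2 was the lowest and CA replicate 3 the highest of the CA libraries. They were open in DG as well, with 10.7 ± 4.15, 6.61 ± 3.61 and 6.32 ± 5.36 CPM (SD, n = 4). The 10 largest changes towards CA had log2 fold changes from -3.85 to -4.29, and 3 of them no longer passed when the rat was a block (FDR 0.016, 0.0235 and 0.0284).

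The NAc DARs were shorter and lay further from other OCRs than OCRs did in general. Their median width was 582 bp, against 664 bp over all OCRs tested and 750 bp for the CA DARs. The median of their mean CPM over all 8 libraries, the closed region included, was 3.55, against 4.39 over all OCRs and 3.85 for the CA DARs. In the NAc libraries alone, their median CPM per library was 4.38 to 7.71, against 4.29 to 4.50 for the OCRs that were not called. The NAc DARs were called from these same libraries, so a high level there follows in part from the choice. Their median distance to the nearest OCR was 7246 bp, against 4748 bp over all OCRs and 6867 bp for the CA DARs. With the OCRs ordered by this mean CPM and split in 10 equal classes, NAc DARs made up between 5.26% and 6.54% of each of the 7 lowest classes, 3.52% of the next, then 1.43%, and 0.0821% of the highest. The highest class held 8 NAc DARs and 1 CA DAR among 9747 OCRs. Of the 424 OCRs of 2 kb or more, 2 were NAc DARs and 1 was a CA DAR.

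The DARs were spread over all autosomes and the X chromosome but not evenly. The share of OCRs called higher in NAc was greatest on chromosome 11 (6.55%, 189 of 2884) and on chromosome 2 (6.28%, 466 of 7415). It was smallest on chromosome 10 (2.51%, 148 of 5905) and chromosome 12 (2.82%, 80 of 2838), leaving aside chromosome Y, where none of 9 OCRs was called. The share called higher in CA was greatest on chromosome 19 (0.55%, 17 of 3089) and smallest on the X chromosome (0.0804%, 1 of 1244), again leaving aside chromosome Y. These shares are descriptions, and the differences between chromosomes were not tested.

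Neighbouring DARs were joined into a run when they lay at most 50 kb apart with none of the other direction between them. Of the 4585 NAc DARs, 1443 fell into 613 runs of 2 or more, and 17 runs held 5 or more. The largest, at chr4:32365152-32399597, had 8 NAc DARs among its 10 OCRs over 34446 bp. All 10 had a positive log2 fold change, from 1.20 to 3.63, and the 2 that were not called had an FDR of 0.0187 and 0.0423. Of the 8, 7 were also called in the METH libraries and 1 was not tested there. A second run of 8 NAc DARs at chr1:52605776-52719637 covered 113862 bp and 15 OCRs. The CA DARs formed 2 runs of 2, and the more compact, at chr19:25901984-25907962, had values of -1.85 at both DARs and -0.45 (FDR = 0.409) at the OCR between them.

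Peak calls, which the authors made in each library by itself, showed the same direction. There were 2754 OCRs with a peak in all 4 NAc libraries and in no CA library, and 843 with a peak in all 4 CA libraries and in no NAc library. Of the 2754, 2265 (82.2%) were NAc DARs and none was a CA DAR, beside 4.70% and 0.274% of all OCRs tested. Of the 843, 80 were CA DARs and none was an NAc DAR, and their median log2 fold change was -1.21 against 2.81 for the NAc pattern. Seen from the DARs, 65.7% of the NAc DARs had a peak in all 4 NAc libraries and 83.2% had none in CA. Of the CA DARs, 43.8% had a peak in all 4 CA libraries and 85.8% had none in NAc. The same peak shares over all OCRs were not analysed here. The peaks and the counts come from the same reads, so the peaks are another view of these libraries and not further evidence. Without CA replicate 2, the CA pattern counted 3758 OCRs in place of 843, and it counted 1486 without NAc replicate 3. The NAc pattern counted 4427 OCRs without CA replicate 4 and 4246 without NAc replicate 2.

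The other saline libraries of these rats placed the DARs further. The dentate gyrus is the other main field of the hippocampus, with its own excitatory granule neurons, and the subventricular zone is a stem cell niche along the ventricle that borders the striatum. Over the 4585 NAc DARs, the median CPM per library ranged from 4.38 to 7.71 in NAc and from 2.95 to 7.09 in the 3 SVZ libraries, whereas it ranged from 0.623 to 0.964 in CA and from 0.548 to 1.24 in DG. The SVZ medians were 2.95, 3.21 and 7.09 CPM, so only SVZ replicate 3 lay within the NAc range. The NAc and SVZ libraries all lay above the CA and DG libraries. The median difference of SVZ from NAc was -0.54 on the log2 scale. The mean log2 CPM of DG was nearer to CA than to NAc at 4577 of the 4585 NAc DARs (99.8%), against 66.4% of all OCRs tested. That of SVZ was nearer to NAc at 4499 (98.1%), against 60.2% of all OCRs.

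The CA DARs were open in DG and low in SVZ. Their median CPM per library ranged from 2.89 to 9.15 in CA and from 4.93 to 6.81 in DG, but from 1.30 to 1.69 in SVZ and from 0.925 to 1.22 in NAc. At all 267 CA DARs, DG was nearer to CA than to NAc, and at 254 of them (95.1%), SVZ was nearer to NAc. Of the OCRs with a peak in all CA and no NAc library, 97.4% had a peak in at least 1 DG library and 29.8% in at least 1 SVZ library. For the opposite pattern, these shares were 8.75% and 93.8%. They count peaks over 4 DG but only 3 SVZ libraries, and the same shares over all OCRs were not analysed here. The DG and SVZ libraries were not used to call the DARs, but they come from the same rats and carry the same 2 spellings of the batch tag.

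**Figure D3:**
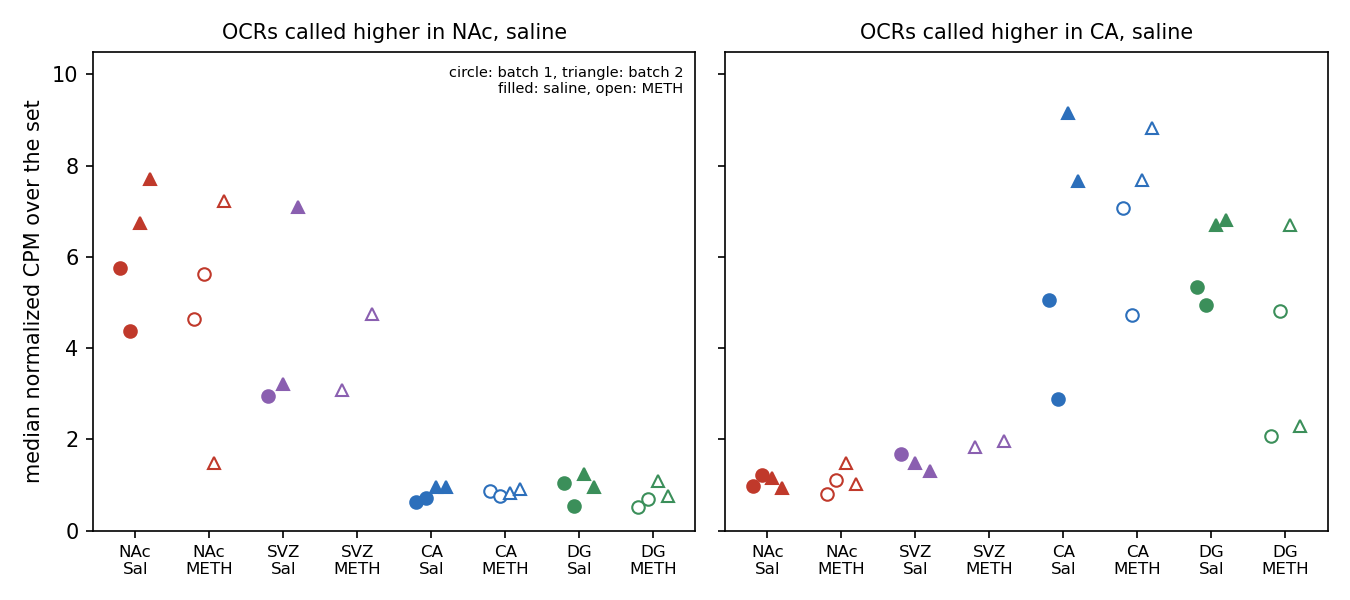
Median normalized CPM over the 4585 OCRs called higher in NAc (left) and the 267 called higher in CA (right) in each of the 29 libraries, by region and treatment, with circles for batch 1, triangles for batch 2, filled symbols for saline and open symbols for METH. With saline, SVZ is high along with NAc in the left panel and DG along with CA in the right panel. DG METH replicates 1 and 4 lie at 2.06 and 2.29 in the right panel, and replicates 2 and 3 at 4.82 and 6.70. The CA METH libraries range from 4.73 to 8.81 there. In the left panel 1 NAc METH library lies at 1.48, and CA saline libraries range from 2.89 to 9.15 in the right panel.

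The METH libraries, which come from 4 other rats, were used to ask whether the region difference returned in animals that shared no library with the saline set. One of them, NAc METH replicate 3, stood apart, with a median of 1.48 CPM over the NAc DARs against 4.63, 5.63 and 7.23 CPM in the other NAc METH libraries. At all 4585 NAc DARs, counted with no filter on low counts, the mean CPM of the NAc METH libraries was above that of the CA METH libraries, with or without NAc METH replicate 3. Over all OCRs tested with saline this held for 51.6%, or 48.2% without that library. In the same direction, 2703 (59.0% of the 4585) were called, against 4.58% of the 97006 OCRs tested there, where 3943 of the 4585 passed the filter on low counts. These 2703 were 60.8% of the 4444 OCRs called higher in NAc with METH. Without NAc METH replicate 3, 4571 of the 4585 were tested and 4243 (92.5%) were called, beside 8289 of all 98154 OCRs tested in that fit. The count fell to 1600, 1757 and 1354 without NAc METH replicate 1, 2 and 4.

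The CA DARs returned as well. At all 267 the CA METH mean CPM was above the NAc METH mean, as at 48.4% of all OCRs, and 240 (89.9%) were called, against 7.25% of all OCRs tested. The METH libraries called many more OCRs higher in CA, 7030, of which the 240 were 3.41%. Of the 6758 of these that were tested in both, 6746 (99.8%) were lower in NAc with saline too. The median saline log2 fold change of the 6758 was -1.53, against -0.04 over all OCRs tested. Without NAc METH replicate 3, the METH libraries called 8289 OCRs higher in NAc and 8687 higher in CA. Over 1.5 times fewer were called without NAc METH replicate 1 (2070 and 3286), 2 (2776 and 4523) or 4 (1769 and 3958). The CA count alone was that much lower without CA METH replicate 3 (4597) or 4 (4664).

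Over the 96468 OCRs tested in both treatments, 80.1% had the same sign, and Pearson's r of the fold changes was 0.887, given here as a description across OCRs. A test of the difference between the METH and saline fold changes (region by treatment interaction) called 0 of 98236 OCRs with edgeR's quasi-likelihood test. It had 1278 OCRs at an unadjusted p under 0.05, and from 742 without CA saline replicate 1 to 6003 without CA saline replicate 4. DESeq2 likewise had 0 calls, with 1866 such OCRs. The larger number of CA calls with METH was thus not shown to be a difference between the treatments. The median SE of this difference was 0.53 on the log2 scale.

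**Figure D4:**
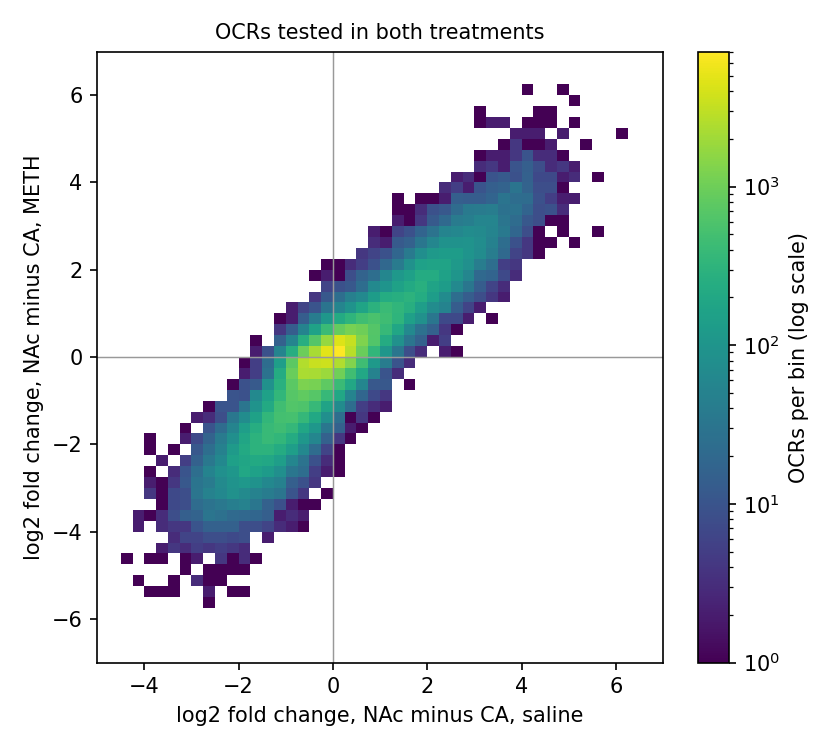
Number of OCRs per bin (colour, log scale) of the log2 fold change NAc minus CA in saline rats (x axis) and in METH rats (y axis), for the 96468 OCRs tested in both. The cloud follows the diagonal, and 80.1% of the OCRs have the same sign in both.

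Genes could be named for 814 OCRs, those for which the study lists a human counterpart region and the human gene mapped there. The study drew up that list from its own OCRs, for human regions that carry variants from association studies, so it is a sample of named regions and not of all genes. Of these 814 OCRs, 28 (3.44%) were NAc DARs, against 4.70% of all OCRs, and 1 (0.123%) was a CA DAR, against 0.274%. The 814 were wider than most (median 798 bp). At all 29 the mean CPM of the METH libraries differed in the same direction, and 21 of the 25 that passed the filter there were called the same way. At all 28 NAc DARs the SVZ mean was above both the CA and the DG mean.

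The named OCRs are described singly, since their number is too small to speak of gene groups. An OCR paired with CDH8, a cadherin of neuronal synapses, lay at chr19:6354849-6355507. It had 10.0, 5.85, 7.56 and 11.5 CPM in NAc and 0.558, 0.331, 0.146 and 0.324 CPM in CA. The NAc values were all at least 10 times the highest CA value, and the log2 fold change was 4.64 ± 0.43 (FDR = 0.000329), with 5.40 ± 3.51 CPM in SVZ (SD, n = 3) and 0.534 ± 0.452 CPM in DG (SD, n = 4). An OCR paired with DCC, the netrin receptor that steers growing axons, lay at chr18:66615933-66616574. It had 2.65, 1.23, 3.57 and 6.76 CPM in NAc and 0.140, 0.265, 0.439 and 0.278 CPM in CA (3.63 ± 0.63, FDR = 0.00382).

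Dopamine receptors of striatal neurons act through cyclic AMP. An OCR paired with ADCY5, the main adenylyl cyclase of the striatum, lay at chr11:68778236-68778767. It had 11.1, 7.80, 15.3 and 14.4 CPM in NAc and 1.88, 2.05, 1.83 and 1.43 CPM in CA, and the 2 groups were far apart (2.75 ± 0.31, FDR = 0.000542). A second and wider OCR of the same gene, at chr11:68832353-68833557, had 36.8 ± 5.66 CPM in NAc and 55.1 ± 38.0 CPM in CA (SD, n = 4), and it was not called (-0.59 ± 0.43, FDR = 0.451). The OCR at chr5:121546809-121547490 is paired with the interval next to PDE4B, a phosphodiesterase that breaks down cyclic AMP. It had 8.83, 4.83, 5.91 and 9.24 CPM in NAc and 0.489, 0.331, 0.439 and 0.417 CPM in CA (4.07 ± 0.37, FDR = 0.000319). An OCR paired with PRKD1, protein kinase D1, had 9.56 ± 4.61 CPM in NAc and 0.792 ± 0.379 CPM in CA (3.55 ± 0.48, FDR = 0.00108).

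The OCR of CACNA1E, which encodes the R-type calcium channel, had 7.75, 8.01, 12.9 and 15.9 CPM in NAc and 3.0, 1.65, 4.76 and 2.87 CPM in CA (1.86 ± 0.38, FDR = 0.00921). It passed the threshold by little and lost its call in 11 of 24 alternative settings. TRPM3, TRPS1 and PLCL1 were picked after their values had been seen. The OCR of TRPM3, a cation channel, had 3.27 ± 1.69 and 0.459 ± 0.130 CPM (2.81 ± 0.54, FDR = 0.00608, and 0.0113 with the rat as a block), and that of TRPS1, a zinc finger repressor, 6.14 ± 3.27 and 0.576 ± 0.175 CPM (3.38 ± 0.45, FDR = 0.000971), in NAc and CA. The smallest called change of the 28 was that of PLCL1, a phospholipase C-like protein, with 22.5 ± 2.57 and 9.96 ± 1.35 CPM (1.17 ± 0.22, FDR = 0.00513).

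Of the 28, 11 are named by a pair of flanking genes and not by a gene that holds the region, and several others by non-coding transcripts. The largest change, 5.06, was at an interval between pseudogenes at chr5:91767144, with 169 reads in NAc and 6 in CA. The OCR at chr20:4081421-4082074, placed between the human MHC class II genes HLA-DRB1 and HLA-DQA1, had 9.82, 5.34, 7.42 and 8.54 CPM in NAc and 0.419, 0.662, 0.293 and 0.648 CPM in CA (3.89 ± 0.38, FDR = 0.000393). In DG it had 0.432 ± 0.687 CPM and in SVZ 4.51 ± 3.58 CPM. The single CA DAR, paired with the non-coding transcripts AC060809.1 and AC104041.1 at chr1:145390162-145390694, had 3.35, 1.12, 10.3 and 1.99 CPM in CA and 0.0982, 0.308, 0.344 and 0.311 CPM in NAc (-3.91 ± 0.77, FDR = 0.00759).

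**Figure D5:**
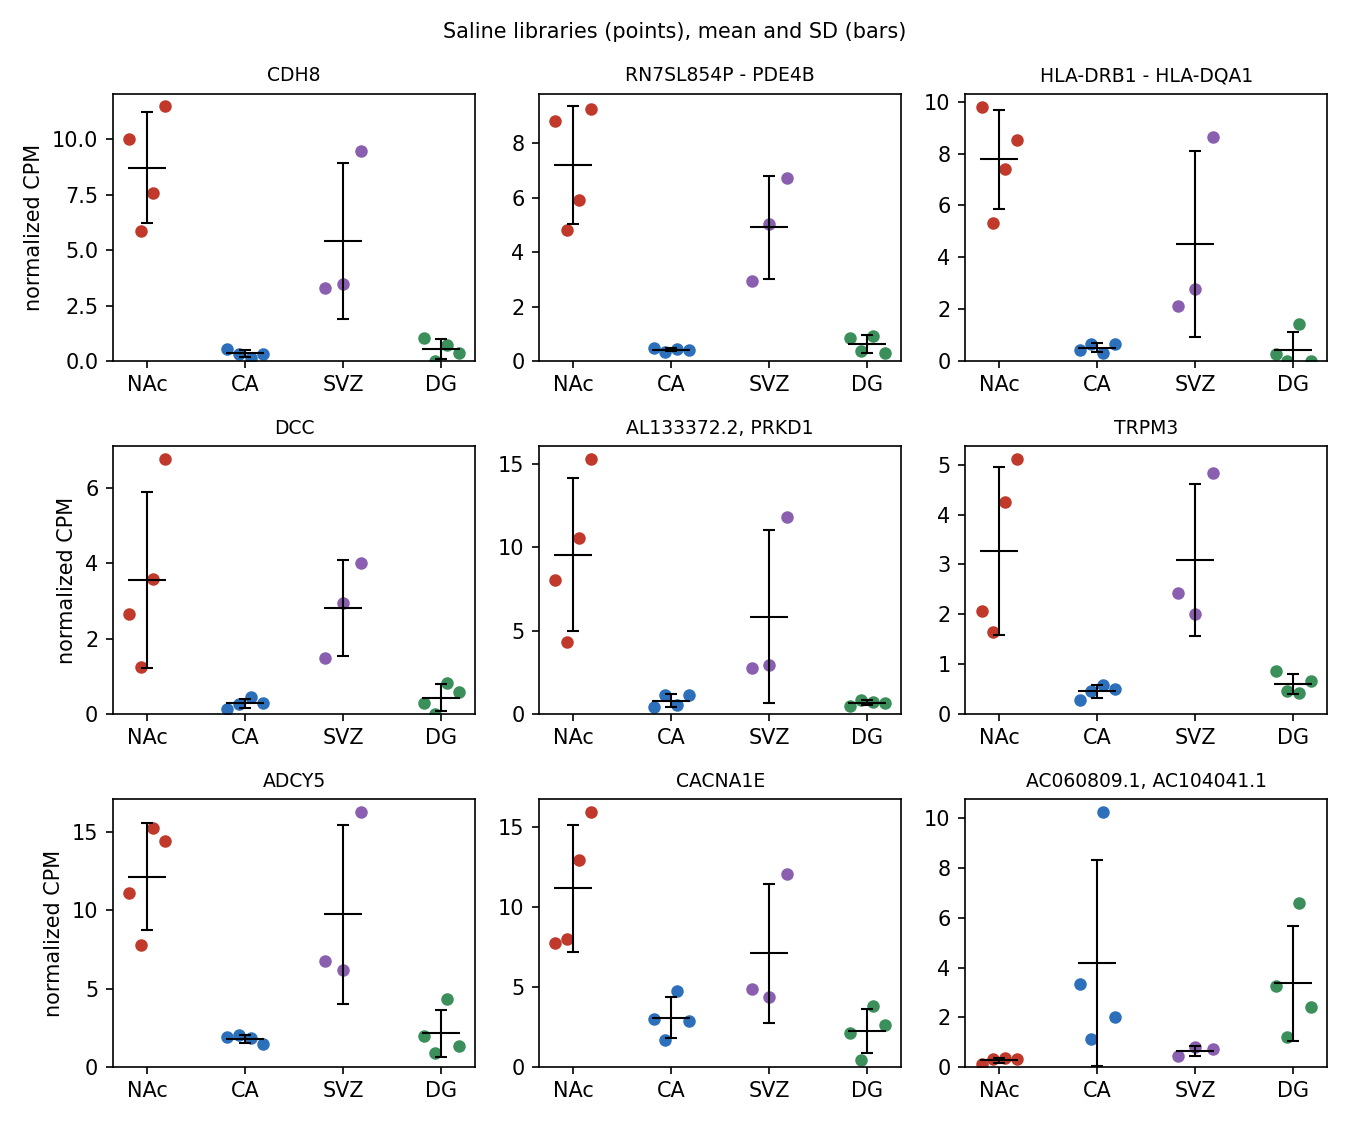
Normalized CPM of 9 DARs paired with human genes in the saline libraries of NAc, CA, SVZ and DG (points), with the mean and SD as bars; panel titles give the human gene or the pair of genes next to the region. In 8 panels NAc and SVZ are high and CA and DG low, and in the last panel CA and DG are high.

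Known markers were looked up among the named OCRs. For striatal projection and GABAergic neurons, 8 of 25 listed genes had an OCR in the list, 13 OCRs in all, of which 1 (ADCY5) was called higher in NAc and none higher in CA, with a median log2 fold change of 0.18 beside -0.04 over all OCRs. Over all OCRs 4.70% were called higher in NAc and 0.274% higher in CA, and over the gene-paired OCRs 3.44% and 0.123%, so the counts of called OCRs in the marker lists, all of them short, lie near the background. An OCR of Gad1, which encodes a GABA-synthesizing enzyme, had 10.7, 9.34, 9.96 and 11.5 CPM in NAc and 2.58, 1.65, 7.03 and 6.06 CPM in CA. The groups did not overlap, but it did not pass (1.25 ± 0.42, FDR = 0.083). The same held for an OCR of Arpp21, a phosphoprotein regulated by cyclic AMP, with 4.16 ± 0.453 and 1.79 ± 0.933 CPM (1.20 ± 0.43, FDR = 0.102). The 8 OCRs of Foxp1, Bcl11b, Erbb4, Meis1 and Rxra, together with the second of Arpp21, had values from -0.57 to 0.57 and were not called. The remaining genes of the list, dopamine receptors included, were not analysed here, so the NAc label was checked at few of its defining genes.

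For cortical and hippocampal excitatory neurons, 12 of 22 genes had 17 OCRs, of which none was called in either direction (median 0.08), beside 4.70% and 0.274% over all OCRs. The one furthest towards CA was at Bdnf, which encodes a neurotrophin. It had 2.37, 1.52, 7.18 and 7.5 CPM in CA and 1.37, 2.16, 1.72 and 1.24 CPM in NAc (-1.53 ± 0.52, FDR = 0.0887). CA replicates 3 and 4 lay well above NAc, replicate 1 just above it and replicate 2 within it. The fold change was -0.14 within batch 1 and -2.30 within batch 2, and -2.14 ± 0.43 (FDR = 0.00246) with METH. An OCR of Kcnh3, a potassium channel of forebrain neurons, gave -0.95 ± 0.43 (FDR = 0.2) with saline and -1.75 ± 0.31 (FDR = 0.00103) with METH. OCRs of Tbr1, Emx2, Zbtb20, Mef2c, Klf9, Sorcs3, Rgs14, Lmo3, Ddn and Camk1g had values from -0.65 to 0.41 and were not called. None of these marker OCRs passed, so they did not check the CA label. The likeness of the CA DARs to DG sets the hippocampus against NAc and cannot tell CA from DG.

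Among ion channels and receptors, 21 genes had 28 OCRs, of which that of CACNA1E was called higher in NAc and none higher in CA (median 0.02), a share near the 4.70% and 0.274% over all OCRs. An OCR of Cacna2d3, a calcium channel subunit, had 17.3, 13.8, 17.6 and 21.9 CPM in NAc and 5.23, 2.45, 5.35 and 8.93 CPM in CA (1.67 ± 0.36, FDR = 0.0123). It narrowly missed the threshold and passed it with the rat as a block (1.78, FDR = 0.00409). A second OCR of Cacna2d3 had 1.58 ± 0.48 (FDR = 0.0564), and an OCR of Scn2a, a sodium channel, had 1.18 ± 0.43 (FDR = 0.11). The OCRs of Gabrb1, a GABA-A receptor subunit, differed from each other, with 1.29 ± 0.38 (FDR = 0.051) at chr14:38814789-38815751 and -0.92 ± 0.40 (FDR = 0.177) at chr14:38804098-38805271. With METH both were called, at 1.36 ± 0.28 (FDR = 0.00258) and -1.32 ± 0.28 (FDR = 0.00341). An OCR of Cacna2d2 gave -0.55 ± 0.53 (FDR = 0.572) with saline, 0.97 in batch 1 and -1.55 in batch 2, and was called with METH (-1.85 ± 0.34, FDR = 0.00131). The remaining OCRs of the list had values between -0.62 and 0.65, and that of Cacna1c with 6.06 ± 0.424 CPM in NAc and 7.76 ± 1.11 CPM in CA did not overlap but was not called (-0.37 ± 0.25, FDR = 0.407).

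None of the few OCRs of glial and immune genes was called, which at 4.70% and 0.274% over all OCRs says little about these lists. The oligodendrocyte lineage had 5 OCRs of 4 genes (Myrf, St18, Nfasc and Vcan) with a median of -0.35 and values from -0.86 to -0.03. Astrocytes had 5 OCRs of 4 genes (Gfap, Clu, Apoe and Prdm16) with a median of 0.28, and at 1 of the 2 OCRs of Prdm16, 8.26 ± 0.744 CPM in NAc and 4.99 ± 0.667 CPM in CA did not overlap (0.72 ± 0.25, FDR = 0.091). Microglia and immune cells had 7 OCRs of 7 genes with a median of 0.14, from -0.90 at Fyb1 (FDR = 0.199) to 0.77 ± 0.32 at Runx1 (FDR = 0.155), where the groups did not overlap. Fyb1 was called with METH (-1.53 ± 0.36, FDR = 0.00623). Dentate granule cells, ependymal cells and endothelial cells had no OCR in the list. The part that different shares of these cells play in the region difference was not tested.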

How the data were processed

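ATAC-seq libraries were prepared from frozen tissue with the omni-ATAC protocol. The authors ran the AIAP pipeline with default parameters, which calls peaks per library, and merged the regions with mergeBed of bedtools (build rn6, in the submitters' processing notes). No source used here gives the pipeline version, the program that counted reads, or whether cut sites were shifted for the transposase. In the deposited table each value is a raw count of an OCR. The deposited peak lists hold a fold enrichment (a ratio) per peak, with its p-value and q-value on the −log10 scale, and q served here to filter peaks.

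The 8 saline libraries were compared with edgeR 4.0.16 under R 4.3.3. Their sizes were scaled by the upper quartile, filterByExpr over the 2 regions kept 97464 of 98237 OCRs, and regions were compared with a robust quasi-likelihood fit. DARs had a fold change above 2 and a Benjamini-Hochberg FDR under 0.01. The SE is the log2 fold change over the square root of F. The METH libraries were fitted in the same way, and the interaction was fitted on all 16 libraries. The study's own fit includes RUVr factors of unstated number, and RUVr was therefore run as an alternative. CPM used the scaled sizes, and log2 CPM a prior count of 2. DG, SVZ and METH levels are from 1 scaling of all 29 libraries. For the distances between regions, 0.1 CPM was added before the log. DESeq2 1.42.0 was an alternative, bedtools 2.31.1 joined peaks and OCRs with at least 1 bp, and single values were compared by two-sided exact permutation tests (SciPy 1.17.1). The OCR test was also run on simulated counts with the same dispersion trend for both regions and no rat or batch effects. In the data the CA libraries spread more than the NAc libraries, so that run covers a simpler case.

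Within the NAc and CA libraries of each treatment, equal replicate numbers are the same rat, as the peak names show, and the block was the rat. SVZ numbers do not follow this, and METH rats are others than saline rats. Deviations from the region means of the 2 libraries of a rat correlated with r of 0.381, 0.083, 0.274 and 0.159. The labels name no other link between samples.

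Libraries, lists and tests were chosen with earlier results of these data known. Named OCRs were the 10 with the largest fold change in each direction among DARs without overlap between groups, the same among OCRs that the study's list pairs with human genes, every paired OCR of the marker lists, and the largest runs and outermost chromosomes. The 16 marker OCRs that were called in either treatment, did not overlap or changed over 2-fold are given with values, and the other 59 by range. Human symbols are the study's. Positions relative to rat genes, sequences and motifs were not analysed here, since no rn6 genome or annotation was used. Every count column was assigned to a sample by its name.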

Additional observations from a re-analysis of the deposited data

Results flagged for a closer look

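Each named OCR was searched for a library that lies far from the other 3 of its group, as the gap to the nearest library over the range of the 4. Of 210 groups of 4, 8 passed Dixon's 95% critical value, which chance alone passes in about 1 group in 20. In 3 of them the CA libraries are at or near 0 reads, so that a few reads in 1 library make up the whole range, with a ratio of 1.0 each. These are chr20:53625246 (1 read, in CA replicate 4), chr14:41613174 (4 reads, all in CA replicate 1) and chr3:157253472 (3 reads, all in CA replicate 4). At chr1:145390162, the CA DAR paired with AC060809.1, NAc replicate 1 was the low one at 0.0982 CPM against 0.308 to 0.344 CPM (ratio 0.855).

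The other 4 are marker OCRs that were not called. At an OCR of Foxp1 (chr4:131875113), NAc replicate 3 had 10.9 CPM against 15.4 to 16.2 CPM (ratio 0.851). At the OCR of Rgs14 (chr17:9791569), CA replicate 4 had 11.5 CPM against 7.68 to 8.20 CPM (0.861). At an OCR of Gabrb1 (chr14:38804098), NAc replicate 2 had 8.11 CPM against 6.05 to 6.28 CPM (0.886). At the OCR of Cckbr (chr1:170250193), CA replicate 4 had 7.41 CPM against 3.77 to 3.95 CPM (0.95).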

How the results depend on the processing

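The larger number of NAc than CA calls held in all alternative fits of the saline libraries, but the counts moved. Higher in NAc and higher in CA, DESeq2 called 7676 and 3727 OCRs, edgeR's likelihood ratio test 8026 and 2577, RUVr 10804 and 4225 with 1 factor or 12189 and 5825 with 2, the batch as a covariate 7686 and 1055, and batch 1 alone 7759 and 3111. An FDR under 0.05 with no minimum fold gave 8287 and 2609, and a fold above 1.5 with an FDR under 0.001 gave 1003 and 1. For CA alone, loess offsets gave 727, the fits with all 15 saline or all 29 libraries 1248 and 1564, and batch 2 alone 2329. Leaving out 1 library gave 1545 to 6362 NAc DARs, 2 to 2898 CA DARs, 2785 to 4427 and 980 to 3758 OCRs with peaks in 1 region alone (NAc and CA), and with METH 1769 to 8289 and 3286 to 8687. With an overlap of at least 50% of the OCR, those peak patterns counted 1556 and 542. DESeq2 called 6942 higher in NAc with METH. The share of variance between regions was 65.4% under the replicate block (exact p = 0.125). The block changed the call of 3 of the 32 DARs named by rule, of TRPM3 and of Cacna2d3, and it moved no count by over 1.5 times. The difference in the top-decile share was -0.854 points within batch 1, and from -0.611 to 3.23 when 1 library was left out. Within batch 1 alone, the fold change turned to 0.97 at Cacna2d2 (chr8:116211540), 0.067 at Gabrb1 (chr14:38804098) and 0.073 at Fyb1, none of them called with saline. The interaction had 0 calls in every fit. Of the 32, 19 kept their call in all other fits at the same thresholds, and 14 of them also passed the stricter threshold. The 59 marker OCRs given by range turned their sign in 150 of 1416 fits. The causes were not tested. Depth limits OCRs with few CA reads, and 4 rats limit every p.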
